A study of Mus musculus with 6 samples.

Results

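The genes described here are the transcription factors that neurons switch on within minutes of electrical activity (Npas4, Egr1, Egr2, Egr3, Egr4, Fos, Fosb, Junb and Nr4a1) and Arc, a synaptic effector induced with them. They were taken as a fixed list of 10 symbols, each represented by the array probe that carried that symbol and no other. A probe of this kind was found for 8 of the 10, of 14860 genes with such a probe, and each of the 8 had a single one. Egr4 and Fosb were not analysed here. Expression was measured in whole hippocampus of mice aged 63 weeks on Affymetrix arrays, 1 array per animal. There were 3 transgenic animals, called HGPS in the labels, and 3 wildtype animals. That name commonly stands for Hutchinson-Gilford progeria syndrome, in which a mutant form of lamin A leads to premature ageing. The sources used here give no promoter, construct or cell type of expression for the transgene, no strain and no sex. All values are log2 expression after RMA, the authors' background correction, normalization and probe summary, so a difference of 1 is 2-fold.

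Calcium that enters a neuron through its receptors and channels activates kinases, which phosphorylate transcription factors already bound to DNA, such as CREB and the serum response factor SRF. These start transcription of the immediate early genes without any new protein synthesis. Most of the immediate early genes encode further transcription factors, which switch on later genes for synapses and plasticity. In hippocampus these transcripts are widely used as a readout of recent neuronal activity, since they appear quickly and decay quickly. The time of day, handling and the animals' state before death all bear on their levels in a tissue sample.

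The 6 arrays had medians between 7.44 and 7.47 over 23332 probes, and correlations between arrays ran from 0.982 to 0.993 across probes. Camk2a, a kinase of excitatory forebrain neurons, read 12.24, 12.34 and 12.29 in the transgenic arrays and 12.26, 12.38 and 12.43 in the wildtype arrays. Prox1, which marks dentate granule neurons, read between 9.03 and 9.22 in the transgenic arrays and between 8.89 and 9.20 in the wildtype arrays. Both markers were well above the array medians, but so was Fezf2, a marker of neighbouring cortex, between 10.16 and 10.50. Spink8, a marker of excitatory hippocampal neurons, read below the medians, between 6.61 and 7.16. These levels alone thus do not identify the tissue. The wildtype animals were not alike in a further respect. Averaged over the Y-linked genes Eif2s3y and Kdm5d, expression was 4.67, 4.78 and 4.70 in the transgenic arrays and 4.63 in wildtype replicate 1, but 8.41 and 8.45 in wildtype replicates 2 and 3. The groups therefore differed in this signal as well as in genotype, and results are also given against each kind of wildtype array.

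All 8 measured genes had a higher mean in transgenic than in wildtype hippocampus, by 1.18-fold for Arc to 1.56-fold for Npas4. Their median log2 difference was 0.32, against 0.00 over the 14996 probes tested, of which 49.9% lay above 0. None of the 8 passed a false discovery rate of 10% in limma, where 0.0467% of all probes passed in either direction and 0% passed as higher. Without wildtype replicate 1, 103 probes passed, 84 of them higher, and again 0 of the 8. No probe in the table passed this rate together with the 2-fold difference that the series states as its criterion (0%), and the 95% interval of all 8 genes ended below 2-fold. At an unadjusted p under 0.05, 6 of the 8 were higher, where 5.81% of all probes were higher and 4.8% lower. Without transgenic replicate 3 or wildtype replicate 3 this count was 3, and the share of all probes is not given here for those fits. In 3 genes, Npas4, Egr1 and Junb, every transgenic array lay above every wildtype array, a separation shown by 9.14% of all probes. That count was 7 without wildtype replicate 2, where 12.9% of all probes separated, and 7 without transgenic replicate 2, where 14.1% did. It was 4 without wildtype replicate 1, where 17.1% of all probes separated. It was 3 or 4 when any other array was left out, and the share of all probes is not given here for those. Since these genes were singled out with earlier results of the same arrays known, the counts describe them and do not test them as a set. In whole tissue, more cells with a transcript and more of it per cell cannot be told apart.

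**Figure D1:**
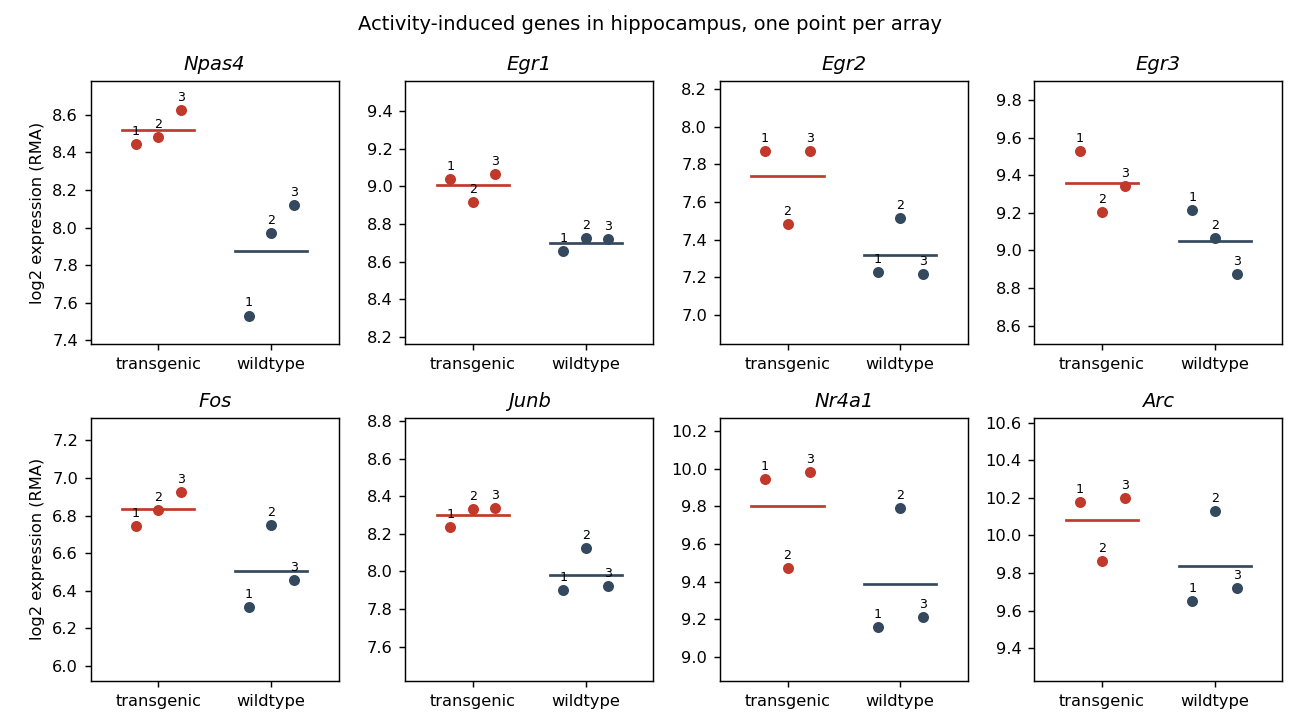
Log2 expression (RMA) of the 8 measured genes on each array, transgenic animals left and wildtype animals right, with the replicate number beside each point and the group mean as a line; every panel spans the same log2 range. Npas4, Egr1 and Junb show no overlap between groups, while in Arc, Nr4a1 and, by a small margin, Egr2 wildtype replicate 2 lies above transgenic replicate 2.

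The promoters of the measured genes are shown because CREB acts on genes of this class through the cyclic AMP response element (CRE). Any part of CREB in the differences above was not tested. The RefSeq table of build GRCm38.p6 held the promoter of 5 of the 8. Given below are the 250 bases before the annotated start, 5′ to 3′. Capitals mark the CRE core TGACG on either strand, the CArG box bound by SRF, the EGR site GCGGGGGCG and the TATA box TATAAA.

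Npas4, chr19:4989972-4990221, minus strand: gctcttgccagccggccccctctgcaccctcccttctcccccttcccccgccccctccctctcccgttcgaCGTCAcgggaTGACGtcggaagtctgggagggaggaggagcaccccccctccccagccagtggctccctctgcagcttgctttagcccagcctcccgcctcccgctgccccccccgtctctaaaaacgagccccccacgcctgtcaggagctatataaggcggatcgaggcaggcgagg

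Egr2, chr10:67537619-67537868, plus strand: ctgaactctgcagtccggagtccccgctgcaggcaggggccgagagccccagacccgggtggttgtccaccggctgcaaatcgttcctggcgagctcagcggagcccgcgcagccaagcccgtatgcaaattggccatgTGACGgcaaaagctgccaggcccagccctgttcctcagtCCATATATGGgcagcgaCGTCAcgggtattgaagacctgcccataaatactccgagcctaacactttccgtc

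Fos, chr12:85473640-85473889, plus strand: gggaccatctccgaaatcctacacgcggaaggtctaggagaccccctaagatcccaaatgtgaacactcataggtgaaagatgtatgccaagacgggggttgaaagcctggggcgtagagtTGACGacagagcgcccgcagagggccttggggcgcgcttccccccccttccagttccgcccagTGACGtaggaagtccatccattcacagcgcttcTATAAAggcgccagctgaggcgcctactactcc

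Junb, chr8:84978749-84978998, minus strand: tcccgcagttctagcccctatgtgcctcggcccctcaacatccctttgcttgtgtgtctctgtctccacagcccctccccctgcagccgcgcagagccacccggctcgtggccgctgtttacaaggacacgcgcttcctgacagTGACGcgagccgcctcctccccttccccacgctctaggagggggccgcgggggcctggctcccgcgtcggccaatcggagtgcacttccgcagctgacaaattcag

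Nr4a1, chr15:101266596-101266845, plus strand: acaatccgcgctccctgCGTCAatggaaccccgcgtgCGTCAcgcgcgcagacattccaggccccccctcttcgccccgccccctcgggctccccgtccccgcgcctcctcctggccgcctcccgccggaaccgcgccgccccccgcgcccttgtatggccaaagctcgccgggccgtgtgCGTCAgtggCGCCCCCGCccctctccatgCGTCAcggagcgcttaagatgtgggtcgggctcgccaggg

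The CRE core was present in 5 of these 5 promoters, against 17.8% of the 32851 promoters in the table, counted over the same 250 bases. Nr4a1 held 4 copies, the Npas4, Egr2 and Fos promoters 2 each and the Junb promoter 1. The 2 copies before Npas4 lie on opposite strands, at bases 179 to 175 and 169 to 165 before the start. The copy before Fos at bases 66 to 62 precedes a TATA box at bases 33 to 28, a motif found in 7.59% of promoters on the strand of the gene. The full palindrome TGACGTCA, which holds the core on either strand, was in none of the 5 and in 1.55% of all promoters. A CArG box was found before Egr2, at bases 72 to 63, and in 1.47% of all promoters. The EGR site GCGGGGGCG was found before Nr4a1, at bases 60 to 52, and in 2.57% of all promoters. Neither the other EGR site searched, GCGTGGGCG, nor the AP-1 site TGANTCA was found in the 5, and these were in 0.536% and 6.75% of all promoters. Egr2 has 5 annotated starts in the table, and the start shown was the one with most CRE core and CArG matches, so its matches are partly a result of that choice. All motifs but the TATA box were searched on both strands, and none of the matches shown overlapped. A match is a run of letters and not evidence that a factor was bound in these animals.

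Npas4 had the largest difference of the 8. It encodes a basic helix-loop-helix PAS transcription factor that is induced by calcium entry in neurons and controls the formation of inhibitory synapses. Its level was 8.44, 8.48 and 8.63 in transgenic replicates 1, 2 and 3, and 7.53, 7.97 and 8.12 in wildtype replicates 1, 2 and 3. The lowest transgenic array was 0.32 above the highest wildtype array, although the wildtype animals spanned 0.59. The log2 difference was 0.64 ± 0.15 (limma SE, n = 3 per group), with a 95% interval of 0.30 to 0.99, an unadjusted p of 0.00316 and an adjusted p of 0.431. This difference exceeded that of 99.7% of all probes, and Npas4 alone of the 8 passed 1.5-fold, as did 0.44% of all probes as higher. The two-sided exact permutation p was 0.1, the smallest that 3 arrays against 3 can give. Wildtype replicate 1 stood lowest by a wide margin, and without it the difference was 0.47 (limma adjusted p = 0.158).

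The EGR family encodes zinc finger transcription factors that bind GC-rich sites. Egr1, the member needed for long-lasting synaptic potentiation in the dentate gyrus, read 9.04, 8.92 and 9.06 in the transgenic arrays and 8.66, 8.72 and 8.72 in the wildtype arrays. The groups did not overlap, and the animals within each group were close together. The log2 difference of 0.31 ± 0.06 (limma SE, 95% interval 0.16 to 0.46) was 5.02 times the residual SD of the gene, the highest such ratio of the 8, and had the smallest unadjusted p of them (0.00193, limma adjusted p = 0.431). Only 19.6% of probes had a smaller residual SD than Egr1, whereas for the other 7 genes this share lay between 49.0% and 96.0%.

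Egr2, which also controls myelination by Schwann cells, read 7.87, 7.48 and 7.87 in the transgenic arrays and 7.23, 7.52 and 7.22 in the wildtype arrays. Transgenic replicate 2 fell just under wildtype replicate 2, by 0.04, so the groups overlapped by a single pair of arrays. The difference was 0.42 ± 0.13 (limma SE, adjusted p = 0.431, exact permutation p = 0.2). Egr3, a relative that is induced alongside Egr1, read 9.53, 9.20 and 9.34 in the transgenic arrays and 9.21, 9.07 and 8.87 in the wildtype arrays. Here the overlap was between transgenic replicate 2 and wildtype replicate 1, at 0.01. Its difference was 0.31 ± 0.11 (limma SE, adjusted p = 0.439, exact permutation p = 0.2). Egr3 was the 1 gene of the 8 in which wildtype replicate 1 was the highest wildtype array.

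Fos and Junb encode partners in AP-1, the dimeric leucine zipper factor that carries the early response to later genes. The level of Fos was 6.75, 6.83 and 6.93 in the transgenic arrays and 6.32, 6.75 and 6.46 in the wildtype arrays. Wildtype replicate 2 matched transgenic replicate 1 to within 0.002, and the other wildtype animals lay clearly below. The difference was 0.33 ± 0.12 (limma SE, adjusted p = 0.433, exact permutation p = 0.2). Fos was also the 1 gene of the 8 whose mean over the 6 arrays was below the array medians, where differences in RMA values are generally compressed. Junb, which tempers the activity of other JUN proteins, read 8.23, 8.33 and 8.34 in the transgenic arrays and 7.90, 8.12 and 7.92 in the wildtype arrays. The transgenic animals spanned just 0.10 and lay 0.11 or more above the wildtype animals. Its difference was 0.32 ± 0.08 (limma SE, unadjusted p = 0.00476, adjusted p = 0.431).

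Nr4a1 encodes an orphan nuclear receptor of the NGFI-B family that neurons induce with the EGR and AP-1 genes. It read 9.95, 9.47 and 9.98 in the transgenic arrays and 9.16, 9.79 and 9.21 in the wildtype arrays. The groups overlapped, with wildtype replicate 2 standing 0.32 above transgenic replicate 2. Its residual SD of 0.32 was higher than that of 96.0% of all probes, and the difference of 0.42 ± 0.20 (limma SE) had a 95% interval of -0.06 to 0.89 (unadjusted p = 0.0770, adjusted p = 0.508). Arc encodes a capsid-forming protein related to retrotransposon Gag, whose messenger RNA travels to active synapses, where the protein promotes the removal of AMPA receptors. It read 10.18, 9.86 and 10.20 in the transgenic arrays and 9.65, 10.13 and 9.72 in the wildtype arrays. The pattern was that of Nr4a1, with transgenic replicate 2 under wildtype replicate 2, by 0.27. The difference of 0.24 ± 0.15 (limma SE, 95% interval -0.10 to 0.59) was the smallest of the 8 (unadjusted p = 0.141, adjusted p = 0.571).

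**Figure D2:**
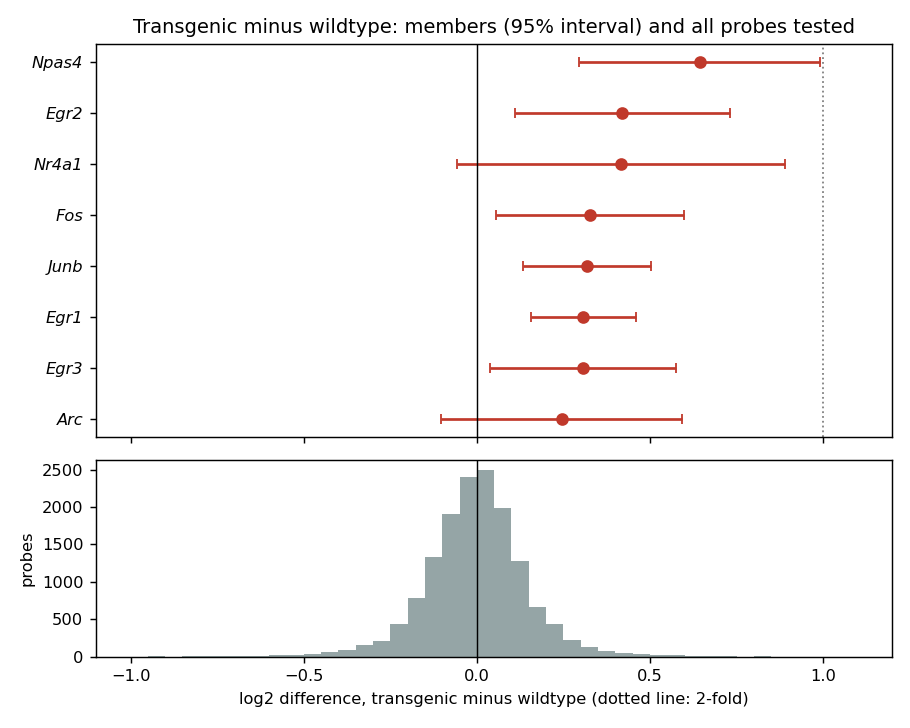
Log2 difference, transgenic minus wildtype, of the 8 genes with 95% intervals (upper panel) above the histogram of the same difference over all probes tested (lower panel). The 8 genes lie between 0.24 and 0.64, the intervals of Nr4a1 and Arc include 0, and all 8 intervals end left of the dotted line at 2-fold.

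The members did not share a single order of animals. Transgenic replicate 3 was the highest array in 7 of the 8 genes, and transgenic replicate 1 was highest for Egr3. Wildtype replicate 1 was the lowest array in 6 of the 8, as it was for 13.1% of all probes, and wildtype replicate 3 was lowest for Egr2 and Egr3. Averaged over the 8 genes, the genes deviated from their 6-array mean by 0.23, 0.05 and 0.28 in transgenic replicates 1, 2 and 3, and -0.31, -0.01 and -0.24 in wildtype replicates 1, 2 and 3. Transgenic replicate 2 was the lowest of its group and wildtype replicate 2 the highest of its group, and the gap between them was small. Transgenic replicate 3 exceeded all wildtype arrays in 8 of 8 genes and in 35.1% of all probes, replicate 1 in 7 genes and 22.7% of all probes, and replicate 2 in 4 genes and 26.7% of all probes.

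The distance between the 6-array patterns of any 2 genes, taken as the Euclidean distance between their deviations, put the 8 into looser and closer company. Fos and Junb were the closest of the 28 pairs, at 0.16, followed by Egr1 and Junb at 0.22. Egr2, Nr4a1 and Arc were close to each other, at 0.26 to 0.28, and in each of them the 3 highest arrays were transgenic replicates 1 and 3 and wildtype replicate 2. The widest pair was Npas4 and Egr3, at 0.84. The median residual SD of the 8 within groups was 0.18, against 0.10 over all probes, and Egr1 (0.06) and Junb (0.10) lay below that all-probe median.

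The number of genes whose groups separated changed most when replicate 2 of either group was left out. Without wildtype replicate 2, the transgenic arrays lay above the others in 7 of the 8 genes, where 12.9% of all probes did so, and the median difference of the 8 was 0.42. Without transgenic replicate 2 the count was also 7, where 14.1% of all probes did so, with a median of 0.37. The log2 difference of Arc was 0.39 without wildtype replicate 2 and 0.35 without transgenic replicate 2, and its limma adjusted p over all alternatives run ranged from 0.460 upward. That of Nr4a1 was 0.62 and 0.58 in these fits, with a lowest adjusted p over all alternatives of 0.372.

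**Figure D3:**
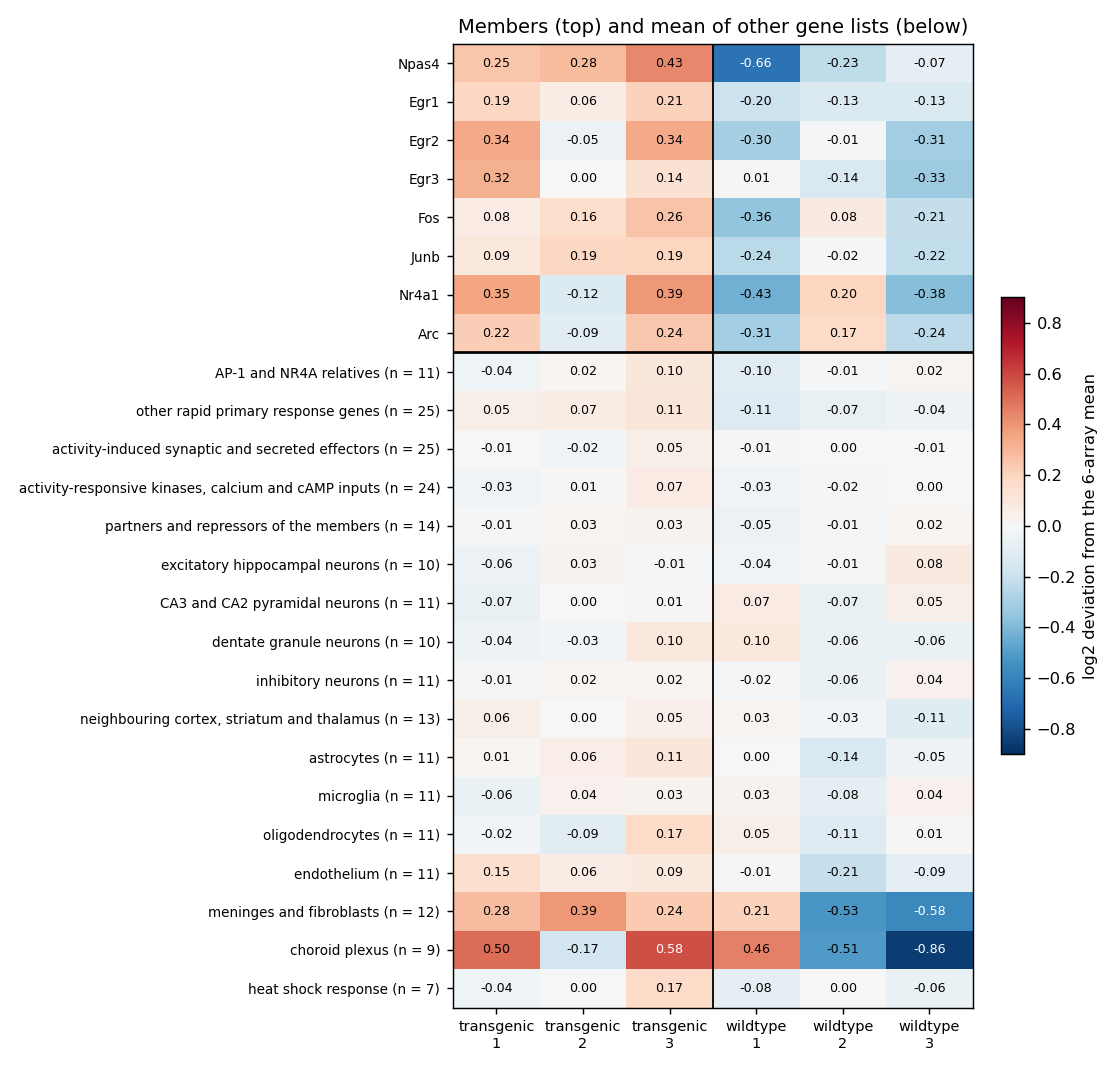
Deviation of each array from the 6-array mean on the log2 scale, for the 8 genes (above the black line) and as the mean of each other gene list (below it), transgenic arrays left of wildtype arrays. Transgenic replicates 1 and 3 are high in most of the 8 genes and wildtype replicates 1 and 3 low. The meningeal list is lowest in wildtype replicates 2 and 3, at -0.53 and -0.58, and has every transgenic array above every wildtype array. The choroid list is lowest in the same arrays, at -0.51 and -0.86, and is also below 0 in transgenic replicate 2, at -0.17.

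Against wildtype replicate 1, the wildtype array without the Y-linked signal, all 3 transgenic arrays were higher in 7 of the 8 genes, all but Egr3, where 25.7% of all probes did so. Against wildtype replicates 2 and 3, which carried that signal, all 3 transgenic arrays were higher in 4 of the 8, namely Npas4, Egr1, Egr3 and Junb, where 17.1% of all probes did so. The mean of the transgenic arrays was above wildtype replicate 1 and above the mean of wildtype replicates 2 and 3 in every gene. For Npas4 it was 0.99 above wildtype replicate 1 and 0.47 above the mean of wildtype replicates 2 and 3. Egr1 was the most even, at 0.35 and 0.28, and Junb followed at 0.40 and 0.28. Egr3 went the other way, at 0.14 and 0.39. Arc had 0.43 and 0.15, Fos 0.52 and 0.23, Nr4a1 0.64 and 0.30, and Egr2 0.51 and 0.37. When the Y-linked signal entered the model as a covariate, the median of the 8 was 0.46 and none passed (lowest limma adjusted p = 0.308). That fit and the first of these comparisons rest on a single wildtype animal.

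**Figure D4:**
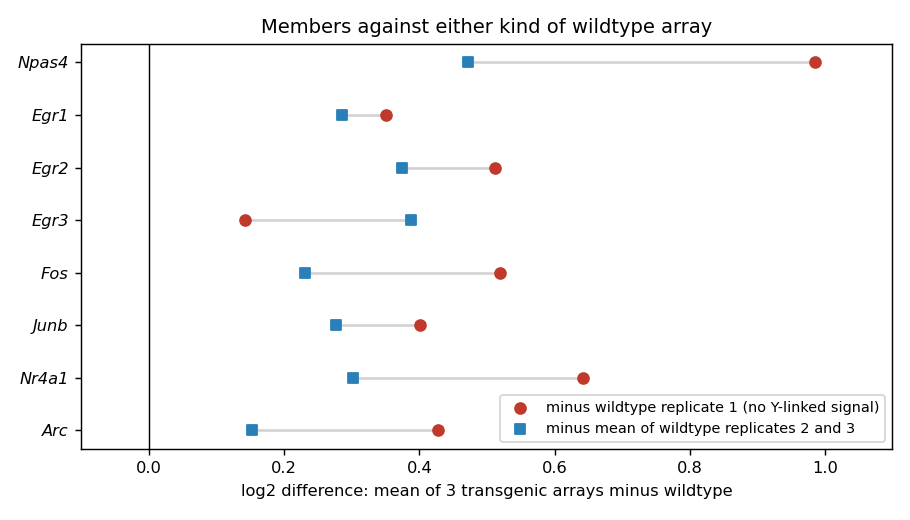
Mean of the 3 transgenic arrays minus wildtype replicate 1 (circles) and minus the mean of wildtype replicates 2 and 3 (squares), in log2 units, for each of the 8 genes. All 16 points lie right of 0, and the circle lies right of the square in every gene except Egr3.

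Of the other genes of the pathway, relatives of AP-1 and of Nr4a1 were mixed. Of 11 measured, 9 lay above 0, with a median of 0.04, and at an unadjusted p under 0.05 there were 2 higher and 1 lower. Over all probes, 49.9% lay above 0, and 5.81% were higher and 4.8% lower at such a p. Fosl2, a FOS-related subunit of AP-1, read 9.01, 9.08 and 9.07 in the transgenic arrays and 8.75, 8.70 and 8.88 in the wildtype arrays, a difference of 0.28 ± 0.07 (limma SE, adjusted p = 0.431). Jund, the most constitutive of the JUN proteins, differed by 0.18 ± 0.07 (adjusted p = 0.442). Batf, an AP-1 factor best known in lymphocytes, differed by -0.26 ± 0.07 (adjusted p = 0.431). Jun differed by 0.10 ± 0.08. The 2 relatives of Nr4a1, named after their values were seen, had intervals that included 0. Nr4a2 averaged 10.99 ± 0.22 in transgenic and 10.96 ± 0.17 in wildtype hippocampus (SD, n = 3 each), a log2 difference of 0.03 with a 95% interval of -0.28 to 0.34. Nr4a3 averaged 9.74 ± 0.12 and 9.74 ± 0.14, a difference of 0.00 with an interval of -0.22 to 0.23.

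Of 25 other measured genes of the rapid primary response, 24 lay above 0, the exception being Rrad, and their median was 0.13. Without transgenic replicate 3, 20 of the 25 lay above 0, and without wildtype replicate 1, 21 did. At an unadjusted p under 0.05, 7 were higher and 0 lower, where 5.81% of all probes were higher and 4.8% lower. In 7 the transgenic arrays lay above all wildtype arrays, as they did in 9.14% of all probes. None passed the false discovery rate of 10% in limma. Dusp1, a phosphatase that switches off MAP kinases, read 9.82, 9.55 and 9.86 in the transgenic arrays and 9.01, 9.52 and 9.17 in the wildtype arrays, a difference of 0.51 ± 0.14 (limma SE). Transgenic replicate 2 and wildtype replicate 2 again came closest to each other. Klf4, a Krüppel-like transcription factor, differed by 0.34 ± 0.08, the salt-inducible kinase gene Sik1 by 0.30 ± 0.07 and the clock gene Per1, which CREB also induces, by 0.24 ± 0.06 (limma adjusted p = 0.431 each). The remaining 3 with such a p were Dusp4, Dusp6 and Btg2, at 0.33, 0.27 and 0.24. Over the alternatives that gave a p, this count ran from 5 to 9. The list as a whole averaged 0.05, 0.07 and 0.11 in the transgenic arrays and -0.11, -0.07 and -0.04 in the wildtype arrays relative to the 6-array mean.

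Effector genes that act later, at synapses or as secreted proteins, showed no common direction. Of 25 measured, 14 lay above 0 and 11 below, with a median of 0.01. At an unadjusted p under 0.05 there were 2 higher, the polo-like kinase gene Plk3 at 0.24 ± 0.07 and the kinase gene Sgk1 at 0.32 ± 0.10, and 2 lower, the substance P precursor gene Tac1 at -0.23 ± 0.06 and Lingo1, an inhibitor of axon growth, at -0.25 ± 0.08 (limma SE, adjusted p between 0.431 and 0.432). Over all probes, 5.81% were higher and 4.8% lower at such a p. In 3 of the 25, Bdnf among them, the transgenic arrays lay above all wildtype arrays, and in 4 below them. Over all probes these shares were 9.14% above and 8.55% below. Bdnf, the neurotrophin gene that Npas4 and CREB induce, averaged 7.27 ± 0.05 in transgenic and 7.15 ± 0.02 in wildtype hippocampus (SD, n = 3 each), a difference of 0.12 with a 95% interval of -0.01 to 0.26. Homer1, a synaptic scaffold gene with an activity-induced short form, differed by 0.04 with an interval of -0.18 to 0.26. These 2 genes were singled out after their values were seen, since each is a standard target of the pathway.

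Of 24 measured kinases, calcium sensors and constitutive transcription factors that lead to these genes, 13 lay above 0, with a median of 0.01, and 2 were higher at an unadjusted p under 0.05. These were the MAP kinase kinase genes Map2k1, at 0.22 ± 0.08 (limma SE, adjusted p = 0.433), and Map2k2, at 0.16 ± 0.06 (adjusted p = 0.462). Over all probes, 5.81% were higher at such a p. In 6 of the 24 the transgenic arrays lay above all wildtype arrays and in 2 below them, against 9.14% and 8.55% of all probes. Creb1 differed by -0.03, with a 95% interval of -0.22 to 0.16, and Srf by 0.05, with an interval of -0.08 to 0.18, 2 further genes picked after their values were seen. Among 14 partners and repressors of the 10 genes, 9 lay above 0, with a median of 0.01, and 2 were higher at such a p. These were Rxra, the retinoid receptor that pairs with Nr4a1, at 0.19 ± 0.06, and Cacng2, an AMPA receptor auxiliary subunit that binds Arc, at 0.23 ± 0.08 (limma SE). Of 7 heat shock genes 5 lay above 0, with a median of 0.14 and 1 higher at such a p, the endoplasmic reticulum chaperone gene Hspa5. Its difference was 0.17, with a 95% interval from 0.00 to 0.34 (limma unadjusted p = 0.04997, adjusted p = 0.470). Over the alternatives that gave a p, this count ran from 0 to 2. The list median is the value of Hsp90aa1, whose probe read between 3.96 and 4.53, far under the array medians. Without transgenic replicate 3 the list median was 0.03.

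**Figure D5:**
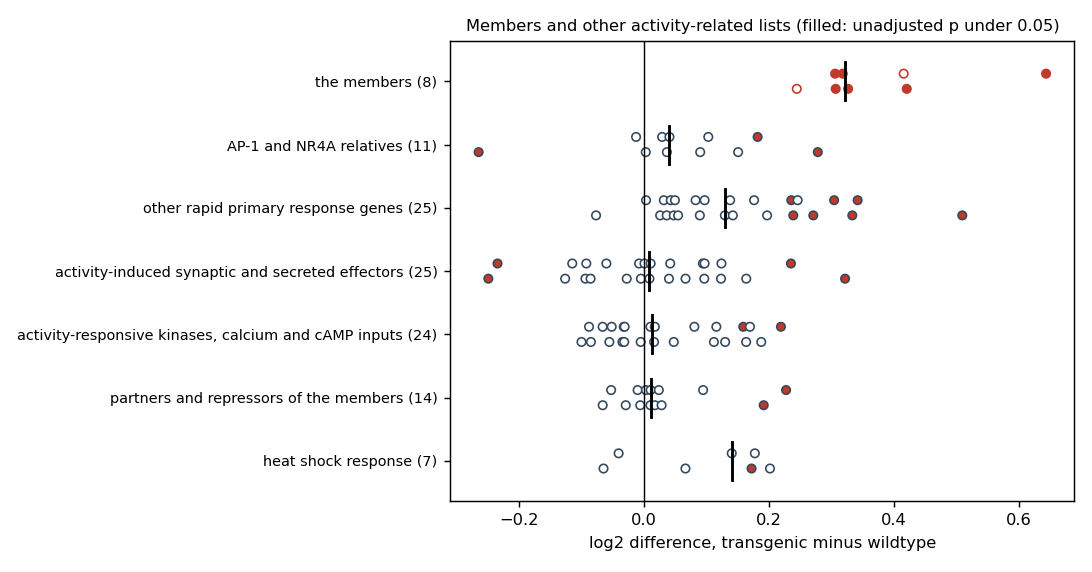
Log2 difference, transgenic minus wildtype, of each measured gene of the 8 and of 6 related lists, with the median as a black bar and an unadjusted p under 0.05 as a filled point. The 8 genes have a median of 0.32, the heat shock genes 0.14 and the other rapid primary response genes 0.13. The heat shock median is the value of Hsp90aa1, whose probe read far under the array medians. The AP-1 and NR4A relatives have a median of 0.04, and later effectors, inputs and partners centre at 0.01.

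Markers of neurons and of other cells were measured beside these genes. Of 10 markers of excitatory hippocampal neurons 5 lay above 0, with mean deviations from -0.06 to 0.03 in the transgenic arrays and from -0.04 to 0.08 in the wildtype arrays. Of 10 dentate granule markers 5 lay above 0, and the list averaged -0.04, -0.03 and 0.10 in the transgenic arrays and 0.10, -0.06 and -0.06 in the wildtype arrays. For CA3 and CA2 the count was 5 of 11 and for inhibitory neurons 7 of 11. None of these neuronal lists put the transgenic arrays on one side of the wildtype arrays, as the mean of the 8 genes did. Markers of neighbouring cortex, striatum and thalamus were above 0 in 8 of 13, with a median of 0.11. At an unadjusted p under 0.05, 3 of these were higher and 1 was lower, where 5.81% of all probes were higher and 4.8% lower. Slc17a6, a glutamate transporter gene of thalamus, differed by 0.45 ± 0.12, Drd1, a dopamine receptor gene of striatum, by 0.38 ± 0.15, and Drd2, another such receptor gene, by -0.23 ± 0.08 (limma SE). The list averaged 0.06, 0.00 and 0.05 in the transgenic arrays and 0.03, -0.03 and -0.11 in the wildtype arrays. Its part in the differences of the 8 genes was not tested.

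All 12 markers of meninges and fibroblasts lay above 0, with a median of 0.46, and their mean deviation was 0.28, 0.39 and 0.24 in the transgenic arrays, 0.21 in wildtype replicate 1 and -0.53 and -0.58 in wildtype replicates 2 and 3. All 9 choroid plexus markers lay above 0, with a median of 0.67, at 0.50, -0.17 and 0.58 in the transgenic arrays and 0.46, -0.51 and -0.86 in the wildtype arrays. All 11 endothelial markers lay above 0, with a median of 0.20, at 0.15, 0.06 and 0.09 in the transgenic arrays and -0.01, -0.21 and -0.09 in the wildtype arrays. Of 11 astrocyte markers 9 lay above 0, with a median of 0.09, at 0.01, 0.06 and 0.11 in the transgenic arrays and 0.00, -0.14 and -0.05 in the wildtype arrays. The means of the meningeal, endothelial and astrocyte lists thus put every transgenic array above every wildtype array, as the mean of the 8 genes did, whereas the choroid plexus list did not. Microglia (5 of 11) and oligodendrocytes (7 of 11) had medians of -0.02 and 0.04. In wildtype replicate 1 the 8 activity-induced genes averaged -0.31, their lowest, and the meningeal and choroid lists were at 0.21 and 0.46, within or close to the range of the transgenic arrays. The part of these cell types in the differences of the 8 genes was not tested.

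The genes most similar in pattern were found by the same distance among the 14852 genes other than the 8, whose median distance from the mean pattern of the 8 was 0.58. The 6 nearest were Wdr53 at 0.14, Plxdc1 at 0.14, Dkkl1 at 0.15, V1ra8 at 0.18, Olfr702 at 0.18 and Sptssb at 0.19. Wdr53, for example, read 7.23, 7.13 and 7.44 in the transgenic arrays and 6.78, 7.16 and 6.84 in the wildtype arrays. V1ra8 and Olfr702 were read between 3.19 and 4.41, far under the array medians. Nearest to Arc alone were C230029F24Rik, Pdgfrl and Tfec, to Npas4 Olfr657, Pdcd5 and Hoxa6, and to Fos Klf5, Il17d and Wdr53, at 0.15 to 0.46. None of these genes had a limma adjusted p under 0.431.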

How the data were processed

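RNA of the hippocampus of 3 transgenic and 3 wildtype mice was hybridised to 1 Affymetrix array each. The authors deposited log2 values per probe after RMA, as the submitters' processing notes state together with the build mm8. Neither the RMA version nor any filter is given in the sources used here. The platform annotation gave 1 symbol to 14996 of 23332 probes. Of these, 14941 matched a RefSeq gene by identifier, and no symbol changed.

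The transgenic minus wildtype difference was fitted with limma 3.58.1 (R 4.3.3; lmFit, then eBayes, two-sided, no covariate) with Benjamini-Hochberg adjustment over all 14996 probes, checked on simulated data. For genes with several probes the brightest stood. The members and lists were chosen with earlier results of these data known. Named were all members, up to 4 genes with the smallest p per pathway list and the nearest patterns, up to 3 markers per marker list, and a few others, Camk2a and Rrad among them, picked after their values were seen. The number of arrays limits precision. Promoters came from RefSeq, build GRCm38.p6, for sequence only. The alternatives are in the closing section.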

Additional observations from a re-analysis of the deposited data

How the results depend on the processing

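Over the 18 alternatives run, all 143 values of single genes were above 0, and 0 of the 135 that had a p passed the false discovery rate of 10% (lowest limma adjusted p 0.158, for Npas4 without wildtype replicate 1). Many of the 143 values repeat the reported ones, since some alternatives change the test and not the difference. These are the replicate block, trend and robust estimation, no moderation, all probes of the table, a stricter false discovery rate and leaving out the dimmest probes. The median difference of the 8 genes ran from 0.29 to 0.47, and that of all probes from -0.01 to 0.02. Single values ran from 0.47 to 0.99 for Npas4, 0.14 to 0.39 for Egr3, 0.23 to 0.52 for Fos, 0.30 to 0.64 for Nr4a1 and 0.15 to 0.43 for Arc, with the ends of each range set by leaving out wildtype replicate 1 and by leaving out wildtype replicates 2 and 3. The range was 0.35 to 0.55 for Egr2, 0.27 to 0.35 for Egr1 and 0.28 to 0.40 for Junb. Values over 1.5 times away from the reported ones came without wildtype replicates 2 and 3 and when the Y-linked signal was a covariate, where Npas4 was 0.97, Egr3 0.14, Fos 0.51, Nr4a1 0.62 and Arc 0.41, and for Arc also without wildtype replicate 1 (0.15) or 2 (0.39). The count of genes with an unadjusted p under 0.05, 6 as reported, was 3 without variance moderation and 3 to 7 when an array was left out. At 3 the array left out was transgenic replicate 3 or wildtype replicate 3. The share of all probes at such a p is not given here for these fits. Separation of the groups, in 3 genes as reported, ran from 3 to 7 when an array was left out and was 7 without wildtype replicates 2 and 3. Having fewer arrays makes it easier. Over all probes the share was 9.14% as reported, 17.1% without wildtype replicate 1 and 25.7% without wildtype replicates 2 and 3. Over all probes, 7 passed as reported, 12 with trend and robust estimation or with array weights, and 0 without moderation, with all probes of the table, when the Y-linked signal was a covariate or with the replicate number as a block. Leaving out an array gave 0 to 103, with 0 for wildtype replicates 2 and 3 and transgenic replicates 1 and 2, and 103, of them 84 higher, for wildtype replicate 1. The cause of these changes was not tested.

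The replicate numbers of the labels do not show that animals were paired. Same-numbered arrays had correlated deviations from their group means of 0.23, 0.15 and 0.02 across probes. With the replicate number as a block the count of the 8 genes with an unadjusted p under 0.05 was 6 and the lowest adjusted p 0.315. Fos has no value when the dimmest 33.3% of probes were left out, since its probe was among them, and no gene had an additional probe to try in its place.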
